A study of Rattus norvegicus with 18 samples.

Results

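The hormones considered here are those that hypothalamic neurosecretory neurons release toward the pituitary, together with the enzyme that finishes several of them. They comprised 8 genes, Trh, Crh, Oxt, Avp, Sst, Ghrh, Gnrh1 and Pam, and were represented by all 11 probe sets whose single gene symbol in the platform annotation was one of these, of 31042 probe sets that were not array controls. The rule for the members used gene names and no measured value, but the hormones were chosen with earlier results of these data known. RNA had been measured on 18 arrays in rats, 9 from hypothalamus and 9 from subcutaneous abdominal fat. In each tissue, 3 arrays came from animals labelled RYGB-Success, which were losing weight after Roux-en-Y gastric bypass, 3 from animals labelled RYGB-Fail, which were gaining it, and 3 from Pair-Fed animals, which received the same amount of food as the treated rats. In this operation most of the stomach and the upper small intestine are bypassed by food. Strain, age, sex, diet, time since the operation and whether Pair-Fed animals had a sham operation are not given in the sources used here. The Pair-Fed animals were not fed at will, and effects of operation and bypass cannot be told apart. The design text calls the 3 arrays of a group biological replicates.

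Neurosecretory neurons make their peptides as longer precursors that are cut in secretory granules. Parvocellular neurons, many of them in the paraventricular nucleus, send releasing and inhibiting hormones into the portal vessels of the pituitary, where TRH stimulates thyrotropin, CRH stimulates corticotropin, GHRH and somatostatin oppose each other on growth hormone, and GnRH stimulates the gonadotropins. Magnocellular neurons of the paraventricular and supraoptic nuclei send axons to the posterior pituitary and release oxytocin and vasopressin directly into the blood. TRH, CRH, GnRH, oxytocin and vasopressin carry an amidated end, which Pam, peptidylglycine alpha-amidating monooxygenase, makes. Fasting is known to lower Trh expression in the rat paraventricular nucleus.

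Of the 11 probe sets, 7 passed the filter on dim probe sets, 1 each for Trh, Crh, Oxt, Avp, Sst, Ghrh and Pam, and entered the linear model, which held 18625 probe sets in all. A probe set is a group of short probes for 1 transcript. The filter ranked probe sets by their average over the hypothalamus arrays and kept the upper 60%, those with a mean signal of at least 52.7. Signals are the deposited linear intensities, and differences are of mean log2 signal ± SE from limma, with 3 arrays per group and p-values adjusted over all 18625 probe sets. Both probe sets of Gnrh1 and 2 of the 3 of Pam lay below the filter.

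Oxt, Avp and Sst separated hypothalamus from fat completely. Oxt had a median of 2070.0 and a range of 359.9 to 5588 on the 9 hypothalamus arrays, and a range of 1.94 to 112 on the 9 fat arrays. The range of Avp was 485 to 4851 in hypothalamus and 5.99 to 258 in fat, and that of Sst was 1181 to 3797 in hypothalamus and 5.28 to 262 in fat. Trh, at 141 to 813 in hypothalamus and 17.9 to 179 in fat, and Crh, at 125 to 357 and 30.5 to 214, overlapped between tissues at the edges. The highest fat signals of Avp, Sst, Trh and Crh were all on the third RYGB-Fail fat array. That array had the highest median signal of the fat arrays, at 288. On the other fat arrays Crh reached at most 121, and so overlapped hypothalamus only through that array. Ghrh was dim in both, at 18.4 to 136 in hypothalamus and 4.55 to 97.8 in fat. Pam is made in many tissues, and its signal was of similar size in both, at 607 to 1944 in hypothalamus and 872 to 2026 in fat.

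**Figure D1:**
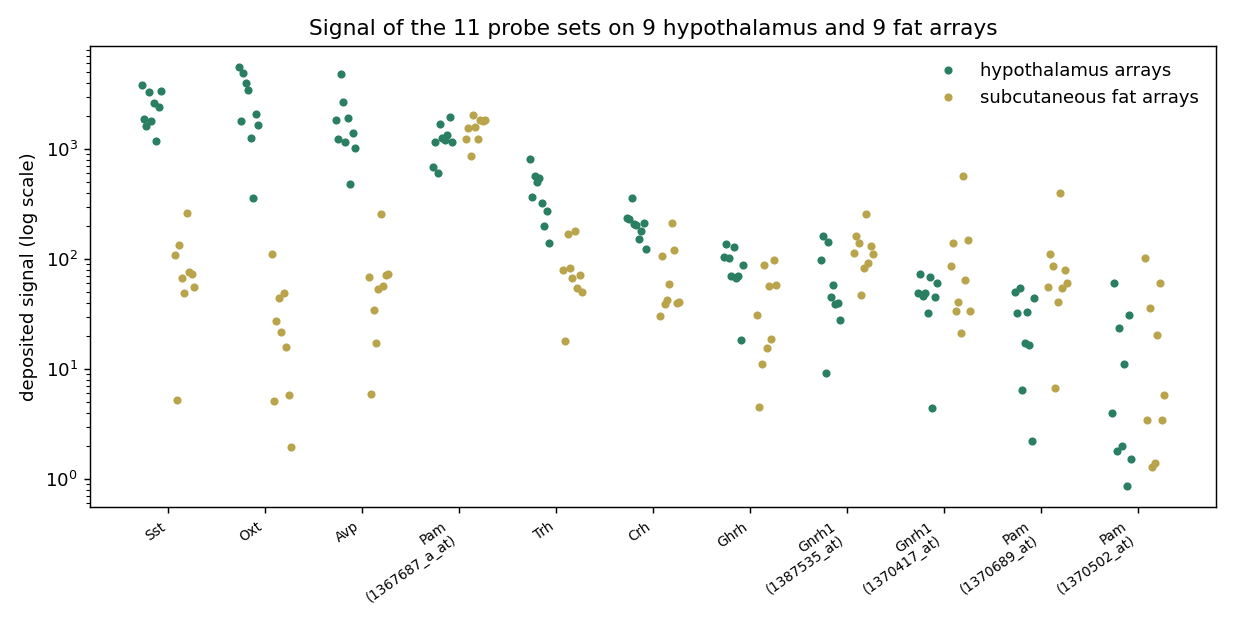
Deposited signal on a log axis of each of the 11 probe sets, with 1 point per array, for 9 hypothalamus arrays and 9 subcutaneous fat arrays. Oxt, Avp and Sst do not overlap between tissues, Pam (1367687_a_at) lies between 607 and 2026 over both tissues, and the Gnrh1 and other Pam probe sets reach no higher in hypothalamus than in fat.

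Higher signals of Trh, Oxt and Avp in bypass animals than in Pair-Fed animals were the largest differences among the tested hormones. Trh was 2.80 times as high in RYGB-Success and 2.26 times as high in RYGB-Fail as in Pair-Fed. Oxt was 3.42 and 2.41 times as high and Avp 2.50 and 2.03 times as high in the same comparisons. Sst differed little between the group means, and Pam was lower in RYGB-Success. None of these differences passed after adjustment. In RYGB-Success against Pair-Fed, limma called 2 of 18625 probe sets, or 0.0107%, and 0 of the 7 tested here. In RYGB-Fail against Pair-Fed it called 0 probe sets (0%), with 445 at an unadjusted p under 0.05, and in RYGB-Success against RYGB-Fail it called 1, or 0.00537%, none of them among the 7.

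Trh encodes the precursor of thyrotropin-releasing hormone, the head of the thyroid axis, which is also known to limit feeding and to raise energy expenditure. Its signals were 813, 369 and 565 in RYGB-Success, 498, 551 and 326 in RYGB-Fail, and 201, 275 and 141 in Pair-Fed. Every bypass array lay above every Pair-Fed array, while the bypass groups overlapped each other. Mean log2 signals were 9.11 ± 0.57 in RYGB-Success, 8.81 ± 0.40 in RYGB-Fail and 7.63 ± 0.48 in Pair-Fed (SD, n = 3 each). The difference was 1.48 ± 0.34 for RYGB-Success against Pair-Fed (limma adjusted p = 0.215) and 1.18 ± 0.34 for RYGB-Fail against Pair-Fed (limma adjusted p = 1.00). Ordered by p, Trh stood at rank 50 of 18625 in the first comparison and at rank 13 in the second. These comparisons share the Pair-Fed arrays, so they are not separate evidence. Between RYGB-Success and RYGB-Fail the difference was 0.31 ± 0.34, with a 95% interval of -0.43 to 1.04. It was 0.80 ± 0.31 with array weights (limma adjusted p = 0.360, over alternatives 0.360 to 1.00), 0.60 without the second RYGB-Success array, 0.03 without the first RYGB-Success array and 0.08 without the third RYGB-Fail array. Taking both bypass groups together, a comparison added after the values had been seen, gave 1.33 ± 0.30 (limma adjusted p = 0.489, rank 17). In that comparison limma called 0 probe sets (0%), with 1442 at an unadjusted p under 0.05. Trh was the 1 of the 7 whose bypass arrays lay wholly above the Pair-Fed arrays, as 2.45% of all tested probe sets did, and 0 of the 7 lay wholly below, as 1.2% did. An unadjusted p under 0.05 was reached by 3 of the 7, Trh, Oxt and Avp, all higher, where 7.74% of all did (5.08% higher and 2.66% lower).

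The sequence upstream of Trh is shown because its level set both bypass groups apart from Pair-Fed, with those of Oxt and Avp for comparison. The RefSeq promoter table of the GRCr8 build held 6 of the 8 genes, and for each the 200 bases before the annotated start were searched on both strands for the core of the cAMP response element, TGACG, which reads as CGTCA on the opposite strand, and for the nuclear receptor motif AGGTCA, which reads as TGACCT there. Capitals mark the matches, and the strand of each gene is given.
Trh, chr4:126301763-126301962, minus strand: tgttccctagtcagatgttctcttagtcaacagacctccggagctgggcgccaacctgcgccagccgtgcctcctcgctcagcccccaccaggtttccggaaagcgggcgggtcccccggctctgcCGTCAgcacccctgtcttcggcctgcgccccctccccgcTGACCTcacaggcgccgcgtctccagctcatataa
Oxt, chr3:138235554-138235753, plus strand: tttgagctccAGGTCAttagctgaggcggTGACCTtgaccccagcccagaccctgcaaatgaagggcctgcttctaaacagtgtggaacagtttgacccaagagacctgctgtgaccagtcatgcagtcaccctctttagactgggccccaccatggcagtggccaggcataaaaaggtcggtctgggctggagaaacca
Avp, chr3:138248523-138248722, minus strand: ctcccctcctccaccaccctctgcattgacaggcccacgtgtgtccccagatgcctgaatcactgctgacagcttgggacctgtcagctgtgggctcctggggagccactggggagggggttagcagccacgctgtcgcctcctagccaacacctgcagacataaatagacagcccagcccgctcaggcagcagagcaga
The Trh window held 1 match to the cAMP core, starting 74 bases before the annotated start, and 1 to the nuclear receptor motif, starting 35 bases before it. The Oxt window held 2 nuclear receptor motifs, starting 190 and 171 bases before the annotated start, and the Avp window held none of either. Of the other genes in the table, Pam held 1 match to the cAMP core, starting 105 bases before its annotated start, and Sst and Ghrh had none of either in this window. The full cAMP response element TGACGTCA, which contains the core on each strand, was in none of these windows. Over all 33469 promoters, 15.9% held the cAMP core, 11.4% the nuclear receptor motif and 1.46% the full element. These are matches of letters, and binding was not measured. The windows and distances rest on the annotated starts, which were not checked against measured starts of transcripts. A motif outside a window would be missed, so its absence there does not show that a gene lacks it.

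Oxt and Avp encode the precursors of oxytocin and vasopressin, and they are neighbours on 1 chromosome, with no annotated gene between them in the RefSeq gene table. Oxytocin acts on milk ejection, parturition and satiety, and vasopressin on water retention and, with CRH, on corticotropin release. Oxt signals were 5588, 1802 and 4906 in RYGB-Success, 3974, 3424 and 1269 in RYGB-Fail, and 359.9, 2070.0 and 1664 in Pair-Fed. The groups overlapped, and the first Pair-Fed array lay far below the other arrays. Mean log2 signals were 11.84 ± 0.89 in RYGB-Success, 11.34 ± 0.90 in RYGB-Fail and 10.07 ± 1.38 in Pair-Fed (SD, n = 3 each). The difference from Pair-Fed was 1.77 ± 0.60 for RYGB-Success (limma adjusted p = 0.275) and 1.27 ± 0.60 for RYGB-Fail (limma adjusted p = 1.00). Without the first Pair-Fed array these were 0.98 and 0.48. Avp signals were 1849, 1232 and 4851 in RYGB-Success, 2670.4, 1166 and 1902 in RYGB-Fail, and 485, 1410.4 and 1028 in Pair-Fed. Here too the groups overlapped, and the first Pair-Fed array was again the lowest and the third RYGB-Success array the highest. The difference was 1.32 ± 0.48 for RYGB-Success (limma adjusted p = 0.295) and 1.02 ± 0.48 for RYGB-Fail (limma adjusted p = 1.00), each against Pair-Fed. Without the third RYGB-Success array the first of these was 0.76, and without the first Pair-Fed array they were 0.89 and 0.59. RYGB-Success and RYGB-Fail differed by 0.51 ± 0.60 in Oxt and by 0.30 ± 0.48 in Avp. With array weights these were 1.29 ± 0.54 and 0.06 ± 0.35, and Oxt in RYGB-Fail against Pair-Fed was 0.61 ± 0.53. Neither difference passed, and their size depends on the weight given to single arrays.

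**Figure D2:**
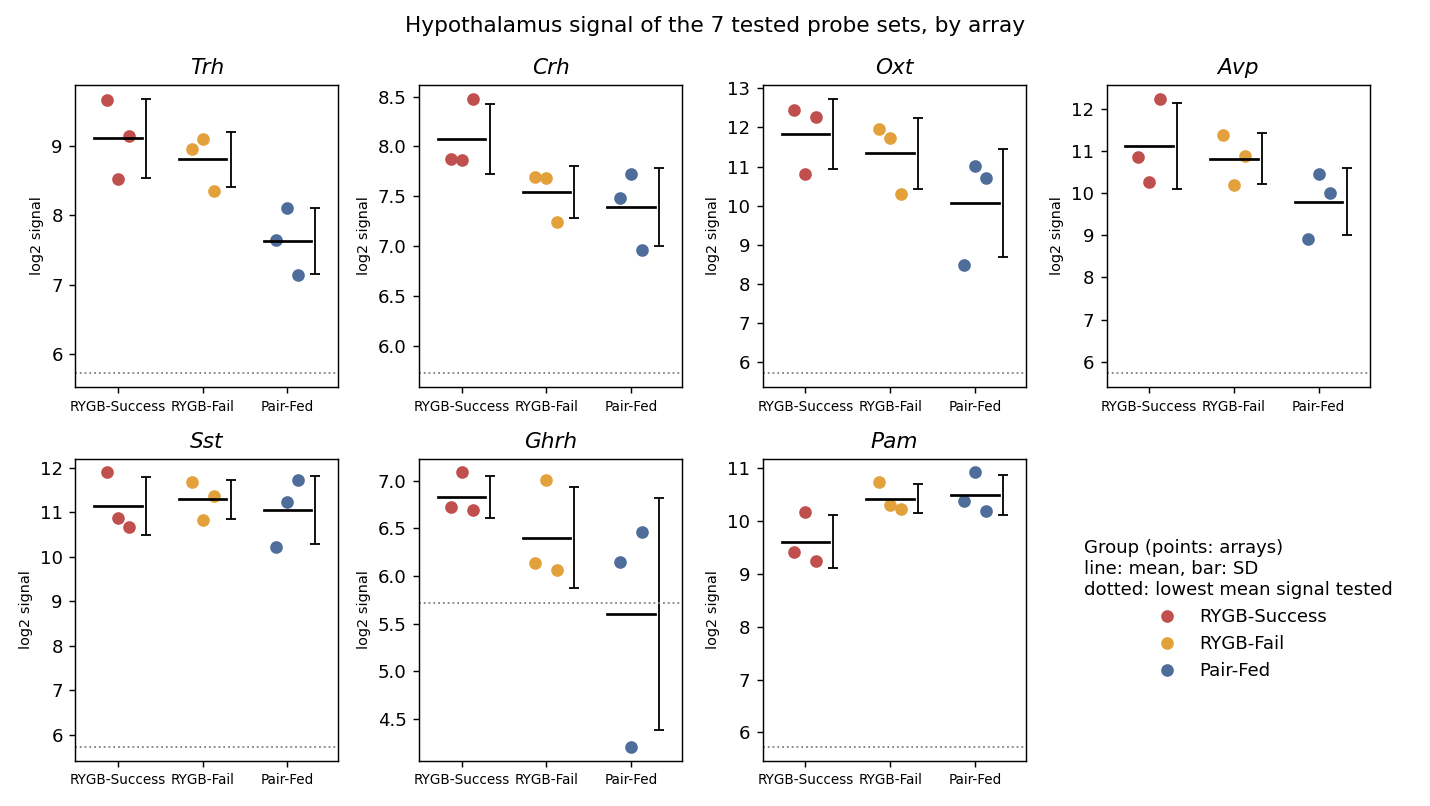
Log2 signal of the 7 tested probe sets in hypothalamus, with points for arrays, a line for the group mean, a bar for the SD and a dotted line at the lowest mean signal tested. Trh separates every bypass array from every Pair-Fed array, Pam separates RYGB-Success from both other groups, and Oxt and Avp overlap, with the first Pair-Fed array lowest.

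Oxt and Avp varied most over the hypothalamus arrays among the 7, with a highest array 15.5 times the lowest for Oxt, and they varied together. The lowest array for both was the first Pair-Fed array, at 359.9 for Oxt and 485 for Avp. Correlations without that array were not calculated. Over the 9 arrays the log2 signals of Oxt and Avp had a Pearson correlation of 0.78, and their deviations from the group means one of 0.63. For Oxt and Trh these values were 0.77 and 0.55, and for Trh and Crh 0.71 and 0.60. Avp and Trh had 0.62 over all arrays and 0.18 within groups. These describe 9 arrays that share their groups and scaling, and no test was made of them. Oxt minus Avp in log2 signal ran from 0.02 to 1.60 in RYGB-Success, from -0.58 to 1.55 in RYGB-Fail and from -0.43 to 0.70 in Pair-Fed, so the balance of both precursors overlapped in all groups.

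Crh encodes corticotropin-releasing hormone, which drives the adrenal stress axis and lowers food intake. Its signals were 234, 233 and 357 in RYGB-Success, 207, 206 and 151 in RYGB-Fail, and 178, 212 and 125 in Pair-Fed. As deposited, all RYGB-Success arrays lay above all arrays of the other groups, and RYGB-Fail overlapped Pair-Fed. The difference was 0.68 ± 0.31 for RYGB-Success against Pair-Fed (limma adjusted p = 0.373), 0.15 ± 0.31 for RYGB-Fail against Pair-Fed (limma adjusted p = 1.00) and 0.53 ± 0.31 for RYGB-Success against RYGB-Fail (limma adjusted p = 0.784). RYGB-Success arrays also had higher median signals over all probe sets than Pair-Fed arrays, at 104 to 127 against 91.5 to 98.8. With each array centred on its median, RYGB-Success minus Pair-Fed was 0.45 ± 0.34 (limma adjusted p = 0.561). RYGB-Success minus RYGB-Fail was then 0.41 ± 0.34 (limma adjusted p = 0.833). Overlap of arrays on that scale was not counted. With the same probe set the third RYGB-Fail fat array reached 214, so part of these signals lay within the range of fat. The other fat arrays reached at most 121, below all hypothalamus arrays.

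Sst and Ghrh, whose peptides act on growth hormone, differed in their pattern. Which cells of the tissue gave these signals was not measured. Sst, the precursor of somatostatin, had signals of 3797, 1875 and 1635 in RYGB-Success, 3281, 1801 and 2620.2 in RYGB-Fail, and 1181, 2391 and 3367 in Pair-Fed. The groups overlapped fully, with differences from Pair-Fed of 0.10 ± 0.38 for RYGB-Success, with a 95% interval of -0.72 to 0.92, and 0.23 ± 0.38 for RYGB-Fail, with a 95% interval of -0.59 to 1.05. The sign of the first was not fixed, as it was -0.14 with each array centred on its median, 0.47 with array weights and 0.76 with the cortex and striatum markers described further on as a covariate. Ghrh, the precursor of growth hormone-releasing hormone, had 105, 136 and 103 in RYGB-Success, 70.2, 129 and 66.8 in RYGB-Fail, and 70.7, 18.4 and 88.0 in Pair-Fed. RYGB-Success lay above Pair-Fed on every array, by 1.23 ± 0.57 (limma adjusted p = 0.377), and RYGB-Fail was 0.80 ± 0.57 above Pair-Fed with overlap (limma adjusted p = 1.00). The second Pair-Fed array, at 18.4, lay below the filter's signal. With every array held at no less than 52.7 the differences from Pair-Fed were 0.73 for RYGB-Success and 0.30 for RYGB-Fail, and without the second Pair-Fed array they were 0.53 and 0.10.

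Gnrh1, the precursor of gonadotropin-releasing hormone, is made by few scattered cells and was not measured above the level in fat. Its probe set 1387535_at had 98.8, 161 and 9.15 in RYGB-Success, 142, 44.9 and 58.1 in RYGB-Fail, and 39.1, 40.2 and 27.7 in Pair-Fed, against 47.3 to 257 in fat. The other, 1370417_at, had 4.41 to 72.8 in hypothalamus and 21.4 to 573 in fat. The highest fat signal of each was on the third RYGB-Fail fat array. The mean signal of 1387535_at was 51.1 and that of 1370417_at was 39.2, both below the filter's 52.7, and Ghrh, at 77.7, was the dimmest hormone above it. In 1387535_at the RYGB-Fail arrays lay above all Pair-Fed arrays, while RYGB-Success overlapped Pair-Fed.

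Pam, whose enzyme turns glycine-extended peptides into their amidated and often active form, was lower in RYGB-Success, where most of the hormones were higher. The probe set 1367687_a_at had 688, 1157 and 607 in RYGB-Success, 1705, 1274 and 1204 in RYGB-Fail, and 1336, 1944 and 1171 in Pair-Fed. Every RYGB-Success array lay below every array of the other groups, which overlapped each other. The difference was -0.88 ± 0.28 for RYGB-Success against Pair-Fed (limma adjusted p = 0.253), -0.07 ± 0.28 for RYGB-Fail against Pair-Fed (limma adjusted p = 1.00) and -0.81 ± 0.28 for RYGB-Success against RYGB-Fail (limma adjusted p = 0.784). Its smallest adjusted p for RYGB-Success against Pair-Fed over the alternatives was 0.076, with arrays centred on their median, in a range of 0.076 to 0.737. In fat the same probe set had 1225, 1564 and 872 in RYGB-Success, 2026, 1580 and 1234 in RYGB-Fail, and 1832, 1802 and 1839 in Pair-Fed. Differences in fat were not tested here. The other Pam probe sets lay below the filter, at 0.86 to 60.6 (1370502_at) and 2.21 to 54.2 (1370689_at) in hypothalamus. With no filter, RYGB-Success minus Pair-Fed was 1.13 ± 1.64 for 1370502_at (limma adjusted p = 0.835) and 1.92 ± 1.11 for 1370689_at (limma adjusted p = 0.553). RYGB-Success minus RYGB-Fail was -0.10 ± 1.64 for 1370502_at and 1.52 ± 1.11 for 1370689_at.

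**Figure D3:**
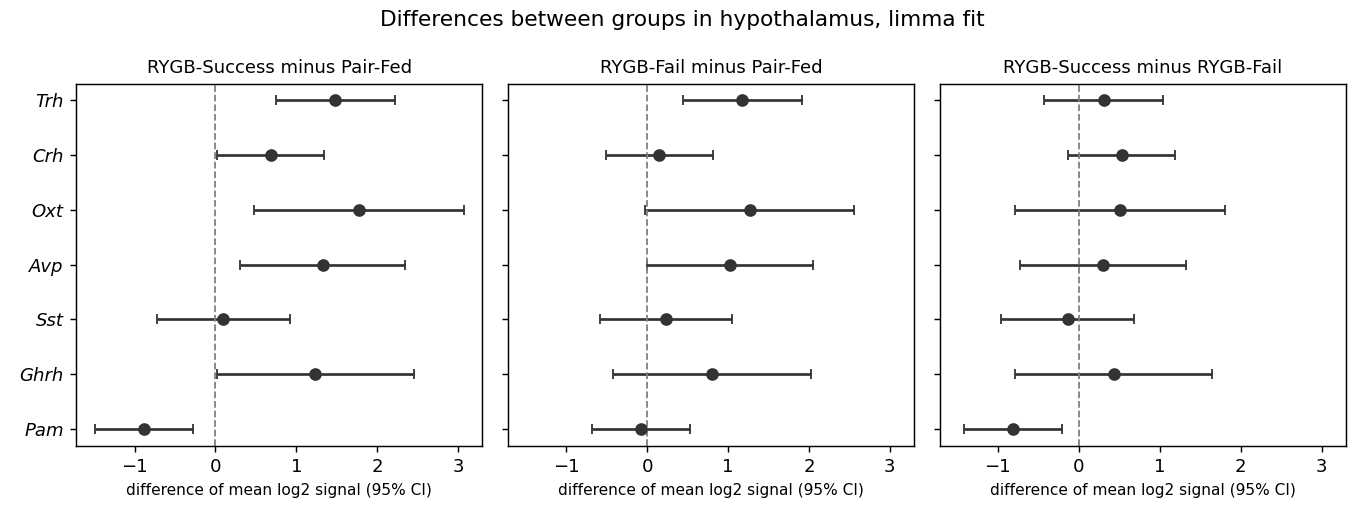
Differences of mean log2 signal between groups with 95% intervals from limma for the 7 tested probe sets, in 3 comparisons with 3 arrays per group. Trh lies at 1.48 and 1.18 against Pair-Fed, Pam at -0.88 against Pair-Fed and -0.81 against RYGB-Fail, and the intervals are not adjusted for the number of probe sets.

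Read over the whole set, 6 of the 7 tested probe sets were higher in RYGB-Success than in Pair-Fed, with a median difference of 1.23, where the median over all tested probe sets was 0.05 and 54.4% were higher. In that comparison 6 of 7 had an unadjusted p under 0.05, Sst being the exception, where 13.1% of all tested probe sets did. Of these, 5 were higher, as 6.94% of all were, and 1 was lower, as 6.2% were. Without overlap, 3 were higher (Trh, Crh and Ghrh) and 1 was lower (Pam), where 10.8% of all tested probe sets were higher and 7.28% were lower in this way. In RYGB-Fail against Pair-Fed 6 of 7 were higher, with a median of 0.80 against 0.03 over all probe sets. There 2 of 7, Trh and Avp, had an unadjusted p under 0.05, where 2.39% of all tested probe sets did. Both were higher, as 1.81% of all were, and none was lower, as 0.58% were. Trh was higher without overlap, as 5.81% of all were, and none of the 7 was lower, as 3.36% were. In RYGB-Success against RYGB-Fail the median was 0.31 against 0.01 over all, and 1 of 7, Pam, had an unadjusted p under 0.05, where 6.01% of all did. Pam was lower, as 3.79% of all were, and none of the 7 was higher, as 2.23% were. Crh was higher without overlap, as 5.84% were, and Pam was lower, as 4.69% were. The F test over the 3 groups called 2 probe sets, or 0.0107%, and 0 of the 7. There 4 of 7, Trh, Pam, Oxt and Avp, had an unadjusted p under 0.05, as 7.68% of all did. The comparisons share arrays and are not independent of each other. As the hormones were chosen with earlier results of these data known, the 7 are not an unselected set beside these shares. An exact 2-sided permutation test of 3 arrays against 3 cannot go below p = 0.1.

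Other genes of the neurosecretory system gave no call in any comparison. Of 10 prohormone processing genes 9 had a probe set with a single symbol, Pcsk1 being without one, and all 9 were tested. In RYGB-Success against Pair-Fed 7 were above and 2 below 0, with a median of 0.08. Pcsk2, a convertase of granules, had 0.02 ± 0.29 in that comparison and -0.52 ± 0.29 for RYGB-Fail against Pair-Fed. Pcsk1n, an inhibitor of the convertase Pcsk1, had 0.47 ± 0.28 in each of these, and Scg5, the chaperone of Pcsk2, -0.28 ± 0.16 and -0.16 ± 0.16. Dense core granule genes were all tested, with 7 of 11 above 0 and a median of 0.10 in RYGB-Success against Pair-Fed. Among them Vgf, a granin-like precursor, had 0.70 ± 0.29, Cyb561, which supplies electrons for amidation, 0.66 ± 0.27, and Syt4, a synaptotagmin, -0.29 ± 0.15.

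Most hormone receptor genes on the array were below the filter. Of 17 receptor and binding protein genes 14 were on the array and 6 were tested, with a median of 0.13 in RYGB-Success against Pair-Fed and 4 of 6 above 0. Sstr2, a somatostatin receptor, had 0.86 ± 0.43, Trhr, the TRH receptor, 0.36 ± 0.26, and Crhbp, which binds and holds back CRH, -0.93 ± 0.48. Of enzymes that break down TRH, Prep, a prolyl endopeptidase, had 0.80 ± 0.40, Trhde, the TRH-degrading ectoenzyme, -0.51 ± 0.42, and Pgpep1, a pyroglutamyl peptidase, 0.21 ± 0.19. All 3 of these were tested and none passed.

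Sim1, a transcription factor needed for the paraventricular and supraoptic nuclei, was also higher in RYGB-Success. Its signals were 198, 208 and 114 in RYGB-Success, 209, 75.0 and 164 in RYGB-Fail, and 80.9, 84.8 and 92.5 in Pair-Fed, with RYGB-Success wholly above Pair-Fed. The difference was 0.96 ± 0.41 (limma adjusted p = 0.358). Of 9 listed neurosecretory transcription factors 7 were on the array and 5 were tested, with 3 above and 2 below 0 and a median of 0.29. Dlx1, of the forebrain interneuron and arcuate lineage, had 0.38 ± 0.28. Fezf2, a forebrain factor, had -1.47 ± 0.99 for RYGB-Success and -2.33 ± 0.99 for RYGB-Fail, each against Pair-Fed. Fezf2 signals were 94.7, 16.9 and 118 in RYGB-Success, 4.97, 49.8 and 129 in RYGB-Fail, and 134, 137 and 220 in Pair-Fed. The second RYGB-Success array and the first and second RYGB-Fail arrays lay below the filter's signal. The size of both Fezf2 differences therefore rests in part on dim arrays.

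The 9 listed genes for products that neurosecretory neurons make beside their main hormone were those of peptides and of the enzyme Nos1. Of these 7 were tested, all for peptides. In RYGB-Success against Pair-Fed 4 were above and 3 below 0, with a median of 0.46. Over all tested probe sets 54.4% were above 0, and none of the peptides passed. Gal, galanin, had 1.22 ± 0.36 (limma adjusted p = 0.229), Cartpt, the CART precursor found in TRH neurons, 0.90 ± 0.40, and Cck, cholecystokinin, which oxytocin neurons also make, 0.71 ± 0.32. In RYGB-Fail against Pair-Fed these were 0.58 ± 0.36, 0.98 ± 0.40 and 0.57 ± 0.32. Of 12 genes of thyroid and steroid feedback 10 were on the array and 7 were tested, with a median of -0.07 in RYGB-Success against Pair-Fed. The next values are of the same comparison. Nr3c2, the mineralocorticoid receptor, had -0.77 ± 0.25 (limma adjusted p = 0.255), and Hsd11b1, which regenerates glucocorticoid, 0.54 ± 0.22. The probe sets of Thra, a thyroid hormone receptor, disagreed, at -1.37 ± 0.53 for 1370691_a_at and 0.38 ± 0.27 for 1367726_at.

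Markers of neighbouring brain regions also differed between the groups, although no marker gene passed after adjustment, and their part in the hormone differences was not tested beyond the values given here. In bulk tissue more RNA per cell and more cells of a type cannot be told apart. Lateral hypothalamus markers (3 of 3 genes on the array) had list means of 9.38 to 10.12 in RYGB-Success, 8.63 to 9.44 in RYGB-Fail and 7.71 to 8.29 in Pair-Fed. Within them Pmch, the precursor of melanin-concentrating hormone, had a difference of 1.83 ± 0.34 for RYGB-Success against Pair-Fed and Hcrt, the orexin precursor, 3.13 ± 0.49 (limma adjusted p = 0.173 and 0.0887). Lhx9, the third of these, differed by 0.04 ± 0.45. Suprachiasmatic markers (5 of 5 on the array) were at 6.73 to 7.20 in RYGB-Success, 6.35 to 7.07 in RYGB-Fail and 4.96 to 6.36 in Pair-Fed, but Prok2, Lhx1 and Six6 were below the filter and 2 of the 5 were tested. Of these, Vip had 0.86 ± 0.23 (limma adjusted p = 0.221) and Rgs16, whose groups overlapped, 0.47 ± 0.29 for RYGB-Success against Pair-Fed. Cortex and striatum markers (7 of 9 on the array) were at 7.64 to 8.51 in RYGB-Success, 7.41 to 9.02 in RYGB-Fail and 8.60 to 9.31 in Pair-Fed, with 6 of 6 tested genes lower in each bypass group than in Pair-Fed. With the cortex and striatum level as a covariate, chosen after the data were seen, RYGB-Success minus Pair-Fed was 1.32 ± 0.42 for Trh, 1.83 ± 0.76 for Oxt, 1.61 ± 0.58 for Avp, 0.42 ± 0.37 for Crh, 0.99 ± 0.70 for Ghrh and -0.86 ± 0.35 for Pam. This covariate moved Sst most, to 0.76 ± 0.35 for RYGB-Success and 0.56 ± 0.31 for RYGB-Fail, each against Pair-Fed, where the values without it were 0.10 and 0.23. None of the 7 passed with it in RYGB-Success against Pair-Fed, with limma adjusted p = 0.737 to 0.841.

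**Figure D4:**
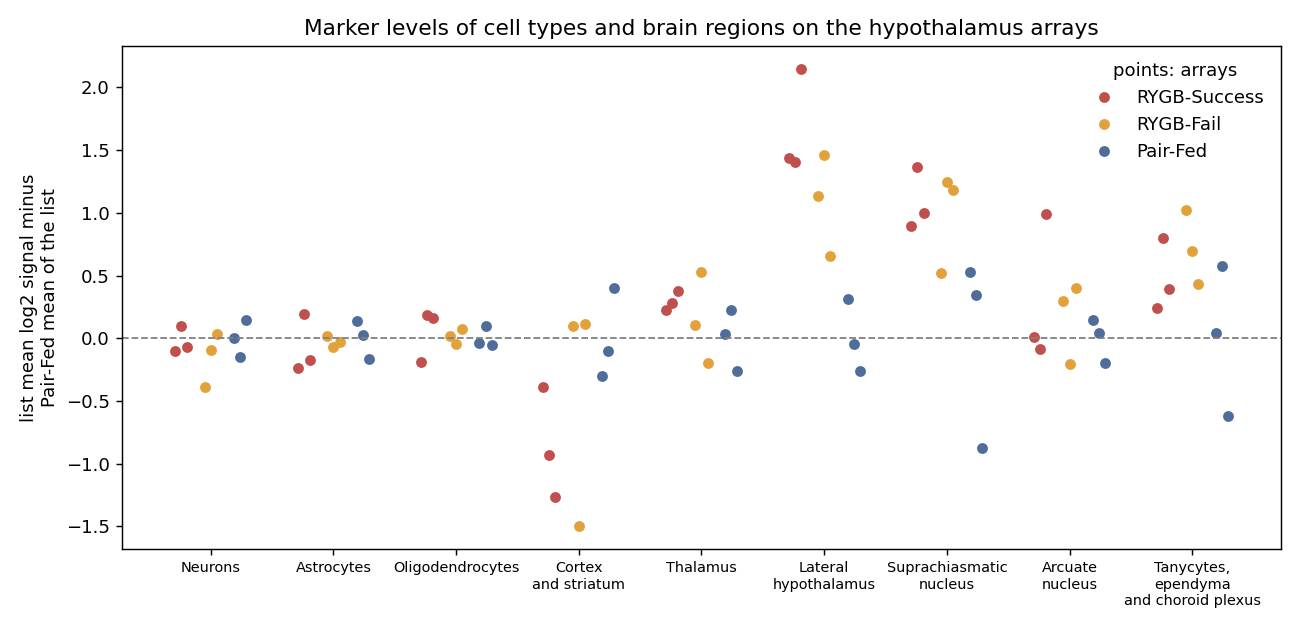
Mean log2 signal of marker lists on each hypothalamus array, minus the Pair-Fed mean of the same list, with points for arrays. Neuron, astrocyte and oligodendrocyte lists lie at most 0.39 from 0, with the farthest the neuron list, which includes Syt1 below the filter, on the first RYGB-Fail array. Lateral hypothalamus lies above the Pair-Fed arrays on all bypass arrays, and cortex and striatum is lower on the RYGB-Success arrays and on the second RYGB-Fail array.

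Arcuate nucleus markers (3 of 6 on the array) overlapped in all groups, at 6.73 to 7.80 in RYGB-Success, 6.60 to 7.21 in RYGB-Fail and 6.62 to 6.96 in Pair-Fed. Npy was at 605 to 1280.4 over the 9 arrays, while Pomc, which arcuate neurons make, was at 3.66 to 62.7 and below the filter. Tanycyte, ependyma and choroid plexus markers (7 of 7 on the array) were at 8.08 to 8.64 in RYGB-Success, 8.28 to 8.87 in RYGB-Fail and 7.22 to 8.42 in Pair-Fed. In each bypass group 4 of 6 tested genes were higher, with a median difference from Pair-Fed of 0.78 in RYGB-Success and 0.61 in RYGB-Fail. The other 2, Crym and Vim, were lower, and Rax was below the filter. Crym had 2407, 1497 and 803 in RYGB-Success, 4192, 1475 and 4470 in RYGB-Fail, and 6275, 3766 and 4663 in Pair-Fed. Microglia markers (7 of 7 on the array) were at 6.54 to 6.95 in RYGB-Success, 6.88 to 7.23 in RYGB-Fail and 6.06 to 6.996 in Pair-Fed. Against Pair-Fed, 4 of 5 tested microglia genes were higher in RYGB-Success, with a median of 0.25, and 5 of 5 in RYGB-Fail, with a median of 0.62. Thalamus markers (5 of 5 on the array) were at 10.95 to 11.11 in RYGB-Success, 10.53 to 11.26 in RYGB-Fail and 10.47 to 10.95 in Pair-Fed, so that RYGB-Success barely overlapped Pair-Fed. The 1 ventromedial marker on the array was below the filter. Neuron markers (10 of 10 on the array) were at 11.58 to 11.78 in RYGB-Success, 11.28 to 11.71 in RYGB-Fail and 11.52 to 11.82 in Pair-Fed. One of them, Syt1, was below the filter, at 4.54 to 103. It was 4.54 on the first RYGB-Fail array, which had the lowest neuron mean. Astrocyte and oligodendrocyte markers overlapped in all groups. Pituitary markers (8 of 10 on the array) were near the bottom of the scale, at 4.62 to 5.22 in RYGB-Success, 4.65 to 5.31 in RYGB-Fail and 3.63 to 4.84 in Pair-Fed. Of these 8, 1 (Tshb) passed the filter. Prl and Gh1, hormones of the anterior pituitary, stayed at or below 53.5. Cga, however, was 352 on the second RYGB-Fail array and at most 57.2 on the others. Tshb reached 161 on the second RYGB-Success array, and Lhb 112 on the first RYGB-Fail array. Blood markers Hbb and Alas2 were higher in RYGB-Success, at list means of 10.85 to 11.58, than in RYGB-Fail, at 9.13 to 9.30, and in Pair-Fed, at 8.24 to 10.03, and their part in the results was not tested. Median signals of the hypothalamus arrays were 104 to 127 in RYGB-Success, 91.1 to 109 in RYGB-Fail and 91.5 to 98.8 in Pair-Fed. The 3' to 5' signal ratio of the beta-actin controls, a measure of RNA integrity, was 6.65 to 48.5 in RYGB-Success, 13.1 to 18.0 in RYGB-Fail and 10.1 to 179 in Pair-Fed. With this ratio as a covariate the difference of Trh between RYGB-Success and Pair-Fed was 1.52. Correlations with the other hypothalamus arrays had medians of 0.929 to 0.959, except for 0.904 on the third RYGB-Success array, and without that array the Trh difference was 1.47.

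Genes whose log2 signal was most like that of a hormone over the 9 hypothalamus arrays were sought by Pearson correlation among all tested probe sets with 1 gene. For Trh they were Rasgrp2, with a Pearson correlation of 0.96, Tmem167b, with 0.95, Msx1, a homeobox gene, with 0.95, and Spout1, with 0.94. For Crh they were Htr2c, a serotonin receptor, with 0.96, Tmem47, with 0.96, Usp6nl, with 0.96, and Sox2, with 0.95. For Oxt they were C10h16orf90, Gaa, Supt4h1 and Hint2, with 0.95 to 0.96, and for Avp Plekhg3, Tfcp2l1, Cmtr1 and Spats2, with 0.94 to 0.96. After group means were removed these correlations were 0.79 to 0.98. Each was picked as the highest among 10438 genes over only 9 arrays, and is a description.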

How the data were processed

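Hypothalamus and subcutaneous fat RNA of rats was extracted with Qiagen RNeasy and labelled with biotin by the Nugen WT Ovation method, per the labels' protocols. The authors deposited 1 linear signal intensity per probe set and array, with MAS5 and GCOS named in the submitters' processing notes and no version stated there. Without the top and bottom 2% of probe sets, hypothalamus columns averaged 500.2, a common mean that does not equalise medians. Arrays of this kind limit precision by their number, here 3 per group.

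Deposited intensities were taken as log2 with no pseudocount. The 57 array controls were left out, and the upper 60% of the remaining probe sets by mean log2 signal in hypothalamus was kept (18625). limma 3.58.1 in R 4.3.3 was fitted to all 9 hypothalamus arrays with 3 groups and a mean-variance trend, 2-sided, with Benjamini-Hochberg adjustment at 0.05, and the same step was first tested on simulated data. An F test over the 3 groups was also made. Gene symbols came from the platform annotation (20826 probe sets with 1 symbol, 436 with several, 9780 with none). Gene identifiers of 20758 probe sets matched RefSeq, with 0 symbols that differed, and promoters came from RefSeq GRCr8. Python 3.11.15 and matplotlib 3.10.9 were used.

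The hormones and lists were chosen with earlier results of these data known. Of the other lists, those that passed, or else up to 3 with the lowest p of any comparison, were named. The most like genes were the 4 with the highest Pearson correlation. Same-numbered replicates of different groups did not deviate together, with correlations of -0.16 to 0.07, so the numbers were not used as pairs. The replicates are biological replicate samples per the series' design text. Alternatives covered a pseudocount, the filter, scaling, array weights, the variance trend, the samples fitted, the replicate block, RNA quality and each array left out.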

Additional observations from a re-analysis of the deposited data

How the results depend on the processing

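Over 28 results for the 7 tested probe sets in 4 comparisons, 577 recalculated values gave 0 calls, 558 kept their direction and 19 turned sign, all of them in differences that were not called. For Trh against Pair-Fed the difference stayed between 1.21 and 1.78 in RYGB-Success (adjusted p = 0.0569 to 0.737) and between 0.90 and 1.41 in RYGB-Fail (adjusted p = 0.647 to 1.00). For RYGB-Success against RYGB-Fail, array weights gave 0.80 for Trh and 1.29 for Oxt, and leaving out 1 array gave 0.029 to 0.60 for Trh. Turned signs for RYGB-Fail against Pair-Fed were Pam at 0.16 with the beta-actin covariate, 0.025 without the third RYGB-Fail array and 0.14 without the second Pair-Fed array (-0.23 to 0.14 with 1 array left out), Sst at -0.19 without the first Pair-Fed array (to 0.57), and Crh at -0.037 with array weights and -0.060 without the third Pair-Fed array (to 0.32). For RYGB-Success against Pair-Fed, Sst was -0.14 under median centring, -0.28 without the first RYGB-Success array and -0.32 without the first Pair-Fed array (to 0.43). For RYGB-Success against RYGB-Fail, Sst was 0.25 with array weights, 0.10 without the third RYGB-Success array, 0.06 without the first RYGB-Fail array (from -0.51) and 0.20 with the cortex and striatum covariate, Oxt was -0.0078 without the third RYGB-Fail array (to 1.02), and Avp was -0.26 without the third RYGB-Success array and -0.02 without the second RYGB-Fail array (to 0.73). For all bypass against Pair-Fed, Sst was -0.0080 under median centring, -0.02 without the first RYGB-Success array and -0.26 without the first Pair-Fed array (to 0.50). All bypass against Pair-Fed, the cortex and striatum covariate and arrays held at the filter's signal were chosen after seeing the data. The cause of these turns was not tested.

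Counts of called probe sets are small and move with the setting. For RYGB-Success against Pair-Fed, 2 became 1 at the upper 40%, 6 under median centring, 6 with array weights, 0 without the variance trend, 5 with only the groups compared, 0 with the cortex and striatum covariate and 4 with arrays held at the filter's signal, and 1 to 65 when 1 array was left out, with 65 without the second RYGB-Success array, 5 without the second RYGB-Fail array, and 1 without the third RYGB-Success array, the second Pair-Fed array or the third Pair-Fed array. For RYGB-Success against RYGB-Fail, 1 became 2 with a pseudocount, with no filter, under quantile normalization or median centring, with the beta-actin covariate and with arrays held at the filter's signal, 6 with array weights, 0 without the variance trend, with only the groups compared and with the cortex and striatum covariate, and 0 to 6 when 1 array was left out, with 6 without the second RYGB-Success array, 2 without the first Pair-Fed array and 0 without any 1 of the RYGB-Fail arrays. For RYGB-Fail against Pair-Fed the count was 0 under all 21 alternatives, with 445 at an unadjusted p under 0.05 in limma. For all bypass against Pair-Fed, 0 became 1 under median centring, with array weights and with the beta-actin covariate, and 0 to 1 when 1 array was left out, with 1 without the second RYGB-Success array. The F test's 2 became 1 at the upper 40%, 0 without the variance trend, 0 with the cortex and striatum covariate, and 1 to 5 when 1 array was left out, with 5 without the second RYGB-Fail array, 4 without the second RYGB-Success array, and 1 without the third array of any group or the second Pair-Fed array. Same-numbered arrays showed no shared deviation, as 0 of 9 pairs of them had deviations correlated over 0.1. Most like an array of their own number were 3 of 9 arrays. With 3 arrays per group this cannot show that same-numbered arrays had nothing in common. With the replicate block the counts were 2 for RYGB-Success against Pair-Fed, 0 for RYGB-Fail against Pair-Fed and 2, in place of 1, for RYGB-Success against RYGB-Fail. Median centring moved the median of all probe sets in RYGB-Success against Pair-Fed to -0.19, against 0.05 as deposited.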
